A study of Mus musculus with 27 samples.

Results

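The regions described here carried histone H3 lysine 4 (H3K4) methylation in the embryonic mouse heart, lay away from any promoter, and covered an inner exon of a protein-coding gene. They were chosen by 2 measures. A region had to be at least 1000 bp and under 8000 bp wide in the merged list of H3K4-methylated regions, and it had to lie over 5 kb from every annotated transcription start site (TSS), overlap an exon of a protein-coding transcript and touch no last exon of such a transcript. Of 358833 merged regions, 80022 had such a width, 53690 of these were distal, and 4032 were distal inner-exon regions. They covered 9.80 Mb, of which 8.11% was exonic, in 2700 host genes. Width is itself read from the same libraries, so it is described below and supports nothing. The readout was whether a region stood in the list of regions with lower H3K4me1, or in the list with lower H3K4me2, in mutant hearts: 144 regions were in the first list, 32 in the second, 5 in both and 3861 in neither.

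The hearts came from C57BL/6 embryos at E11.5, where E counts embryonic days. Control embryos were *Tnnt2::Cre*; *Kmt2d* fl/+; mTmG/+ and mutants were *Tnnt2::Cre*; *Kmt2d* fl/fl; mTmG/+, so both groups carried the Cre transgene, the fluorescent mTmG reporter of Cre activity and at least 1 floxed *Kmt2d* allele. The *Tnnt2* promoter drives Cre in heart muscle cells, and the whole hearts also held cells in which *Kmt2d* stayed intact. Each genotype was represented by 3 pools of 30 hearts, each giving an input and immunoprecipitates for H3K4me1, H3K4me2 and H3K4me3, and 3 further libraries of KMT2D ChIP-Exo from cardiomyocytes made from embryonic stem cells were not analysed here. In whole hearts, fewer cells of a type and less of a mark per cell cannot be told apart. The merged list had a region over a TSS of 8 of 8 heart muscle marker genes, 4 of 4 endothelial and endocardial ones, 3 of 3 epicardial ones and 3 of 4 red blood cell ones (all except *Hba-a1*). This does not show which cell types were present. Of the regions described here, 93.8% also had a host gene with a TSS inside a merged region, so most genes would pass.

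The enzyme KMT2D places methyl groups on H3K4, with enhancers as its best-known sites. H3K4me1 is typical of enhancers, H3K4me2 of enhancers, promoters and the start of gene bodies, and H3K4me3 of promoters. Enhancers are usually thought of as intronic or intergenic, but some lie over exons, where the same bases encode protein and can also bind transcription factors. Inner exons, those that are neither the first nor the last of a transcript, are mostly coding and richer in G and C than the introns beside them.

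The lists gave positions only, with no read count, fold change or P value, and neither the depth of a library nor the level of a mark in a region is known. A region in a decreased list is one that the depositors listed as lower in mutant hearts. The study chose both sets by a cut-off on the false discovery rate, the expected share of false calls in a list. Some listed regions may therefore be false calls. The H3K4me2 list was used as deposited, with 6699 regions. Its size differs from that stated in the study, for a reason not given in the sources used here. Absence from a list does not show that a mark stayed the same, since a call needs enough reads, which broad regions with much of the mark supply more easily. Which of the 3 marks a merged region held was not recorded. All shares below are counts of such calls. Their 95% Wilson intervals cover counting error over regions, not the variation between pools of hearts, and they treat neighbouring regions as independent, so no P value is given.

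The 4 widest regions with lower H3K4me1 that held a whole coding inner exon of 60 to 240 bases are shown first, as examples. All 144 regions with lower H3K4me1 held coding bases. The call was made for the whole region and not for the exon printed. Each line gives the longest such exon in capitals with its intronic flanks in lower case, read 5′ to 3′ on the strand of the host gene, from mouse assembly NCBIM37 (mm9).
Mapkapk2 exon 2, chr1:132955120-132955419 (minus strand): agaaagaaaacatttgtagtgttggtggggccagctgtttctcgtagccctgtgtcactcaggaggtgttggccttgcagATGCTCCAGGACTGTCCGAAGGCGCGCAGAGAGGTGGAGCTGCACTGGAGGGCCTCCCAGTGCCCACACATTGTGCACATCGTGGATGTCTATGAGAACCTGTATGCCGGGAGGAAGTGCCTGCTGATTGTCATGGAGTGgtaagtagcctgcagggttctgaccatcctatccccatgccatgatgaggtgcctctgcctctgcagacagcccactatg
Rbpms2 exon 5, chr9:65498666-65498964 (plus strand): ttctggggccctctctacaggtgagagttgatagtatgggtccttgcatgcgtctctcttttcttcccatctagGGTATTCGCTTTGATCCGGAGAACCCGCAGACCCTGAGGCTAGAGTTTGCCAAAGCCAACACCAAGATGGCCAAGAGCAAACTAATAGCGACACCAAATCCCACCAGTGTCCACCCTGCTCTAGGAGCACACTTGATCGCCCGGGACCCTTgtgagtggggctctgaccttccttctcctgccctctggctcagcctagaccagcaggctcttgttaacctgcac
Afap1 exon 3, chr5:36278585-36278883 (plus strand): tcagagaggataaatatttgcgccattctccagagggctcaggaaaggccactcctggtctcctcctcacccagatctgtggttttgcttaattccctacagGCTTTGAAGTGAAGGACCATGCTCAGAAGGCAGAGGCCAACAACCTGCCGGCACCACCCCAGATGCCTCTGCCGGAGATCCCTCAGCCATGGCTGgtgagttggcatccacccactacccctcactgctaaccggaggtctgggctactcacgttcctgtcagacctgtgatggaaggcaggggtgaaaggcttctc
Alpk3 exon 4, chr7:88221668-88221967 (plus strand): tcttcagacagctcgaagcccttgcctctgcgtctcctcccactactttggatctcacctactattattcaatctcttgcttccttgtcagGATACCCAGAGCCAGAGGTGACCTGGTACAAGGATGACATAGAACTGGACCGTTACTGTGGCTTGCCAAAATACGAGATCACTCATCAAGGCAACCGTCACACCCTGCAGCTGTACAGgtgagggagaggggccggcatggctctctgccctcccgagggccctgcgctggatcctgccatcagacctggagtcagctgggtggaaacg

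Among the widest regions with lower H3K4me2, 3 exons chosen in the same way are printed likewise.
Iqgap2 exon 21, chr13:96441139-96441437 (minus strand): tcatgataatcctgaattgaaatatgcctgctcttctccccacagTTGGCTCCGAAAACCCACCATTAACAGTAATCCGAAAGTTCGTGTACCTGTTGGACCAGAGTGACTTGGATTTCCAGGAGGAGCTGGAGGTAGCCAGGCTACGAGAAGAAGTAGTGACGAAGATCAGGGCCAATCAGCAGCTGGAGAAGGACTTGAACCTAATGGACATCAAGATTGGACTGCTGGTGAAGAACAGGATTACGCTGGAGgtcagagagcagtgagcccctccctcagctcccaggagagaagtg
Ssh2 exon 9, chr11:77234666-77234964 (plus strand): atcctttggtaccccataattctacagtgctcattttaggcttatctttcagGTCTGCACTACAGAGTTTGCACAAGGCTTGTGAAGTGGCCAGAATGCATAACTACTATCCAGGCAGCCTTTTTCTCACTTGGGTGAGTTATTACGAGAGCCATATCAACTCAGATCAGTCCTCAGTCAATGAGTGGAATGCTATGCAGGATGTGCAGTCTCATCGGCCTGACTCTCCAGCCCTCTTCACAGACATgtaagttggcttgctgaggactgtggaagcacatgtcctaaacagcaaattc
Lmx1a exon 4, chr1:169760614-169760912 (plus strand): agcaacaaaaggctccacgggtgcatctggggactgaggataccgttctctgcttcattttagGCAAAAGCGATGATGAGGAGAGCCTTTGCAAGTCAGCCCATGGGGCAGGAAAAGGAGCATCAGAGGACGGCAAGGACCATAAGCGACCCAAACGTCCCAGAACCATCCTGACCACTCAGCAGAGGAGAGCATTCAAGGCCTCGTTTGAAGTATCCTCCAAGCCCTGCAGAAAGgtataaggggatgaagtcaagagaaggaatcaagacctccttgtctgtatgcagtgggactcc

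All 7 exons were bounded by ag on the 5′ side and gt on the 3′ side, the usual splice site letters. Their lengths ran from 95 to 209 bases, their GC content from 48.2 to 61.1%, and each held 2 to 6 CpG dinucleotides. The exons were a small part of the regions around them, since the exonic share of the 4 regions with lower H3K4me1 was 3.20 to 20.1% and that of the 3 with lower H3K4me2 was 4.45 to 7.55%.

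Of 5 classes of distal region, inner-exon regions had the highest share in the decreased H3K4me1 list, and their share in the decreased H3K4me2 list was near that of intronic regions. The H3K4me1 share was 144 of 4032, or 3.57% (95% interval 3.04 to 4.19%), against 0.761% of all merged regions and 1.91% of those of the same widths. Among distal regions of the same widths it was 2.45% in introns (2.25 to 2.66%, n = 22612), 2.34% over gene ends (1.74 to 3.15%, n = 1793), 1.70% in intergenic DNA 5 to 50 kb from a TSS (1.51 to 1.92%, n = 15340) and 1.07% farther away (0.885 to 1.29%, n = 9913). The interval of the inner-exon regions did not overlap those of the intronic or intergenic classes, but it overlapped that of gene ends.

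For H3K4me2 the order differed. The share was 32 of 4032, or 0.794% (0.563 to 1.12%), below the 1.87% of all merged regions and the 5.32% of those of the same widths, a background in which 13.4% of the 26332 regions within 5 kb of a TSS were in the list. Intronic regions had 0.911% (0.795 to 1.04%) and gene ends 1.00% (0.636 to 1.58%), with intervals that overlapped that of the inner-exon regions. Intergenic regions 5 to 50 kb from a TSS had 2.31% (2.08 to 2.56%), an interval wholly above it.

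**Figure D1:**
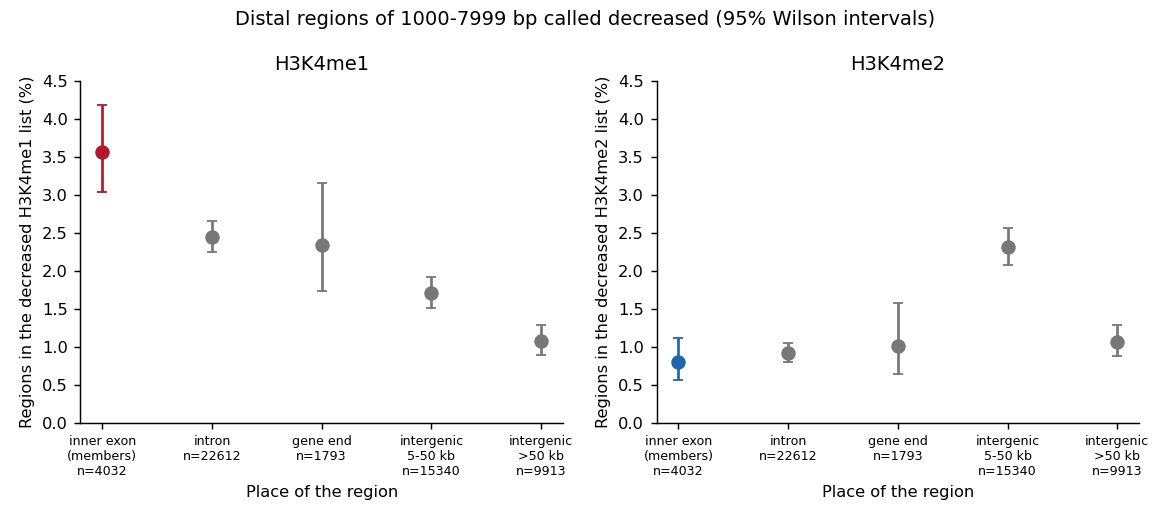
The left panel gives the percentage of distal regions of 1000 to under 8000 bp in the decreased H3K4me1 list and the right panel that in the decreased H3K4me2 list, by place (points, with 95% Wilson intervals as bars and the number of regions under each class). For H3K4me1 the inner-exon regions were highest, at 3.57%; for H3K4me2 they were near introns and gene ends, and intergenic regions 5 to 50 kb away were highest, at 2.31%.

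The comparison with introns was repeated inside the same genes. The 2700 host genes also held 12550 distal intronic regions of the same widths, of which 2.66% (2.39 to 2.96%) were in the decreased H3K4me1 list, an interval just below that of the inner-exon regions, and introns of other genes had 2.18% (1.91 to 2.48%). For H3K4me2, introns of the same host genes had 0.884% (0.735 to 1.06%).

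Regions in either decreased list had a larger median width than the rest. The median width was 1920 bp over all 4032 regions, 2970 bp for those in the decreased H3K4me1 list, 2920 bp for those in the decreased H3K4me2 list and 1880 bp for those in neither. The H3K4me1 share climbed from 1.33% at 1000 to under 1500 bp to 8.97% at 6000 to under 8000 bp. Intronic regions of these widths went from 0.881% to 7.97%. The intervals of both classes overlapped at every width except 2000 to under 3000 bp, where 4.79% (3.56 to 6.41%) of inner-exon regions and 2.73% (2.31 to 3.23%) of intronic ones were in the list. The H3K4me2 share went from 0.234% at 1000 to under 1500 bp to 1.64% at 4000 to under 6000 bp, and was 0.690% (1 of 145) in the widest class.

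**Figure D2:**
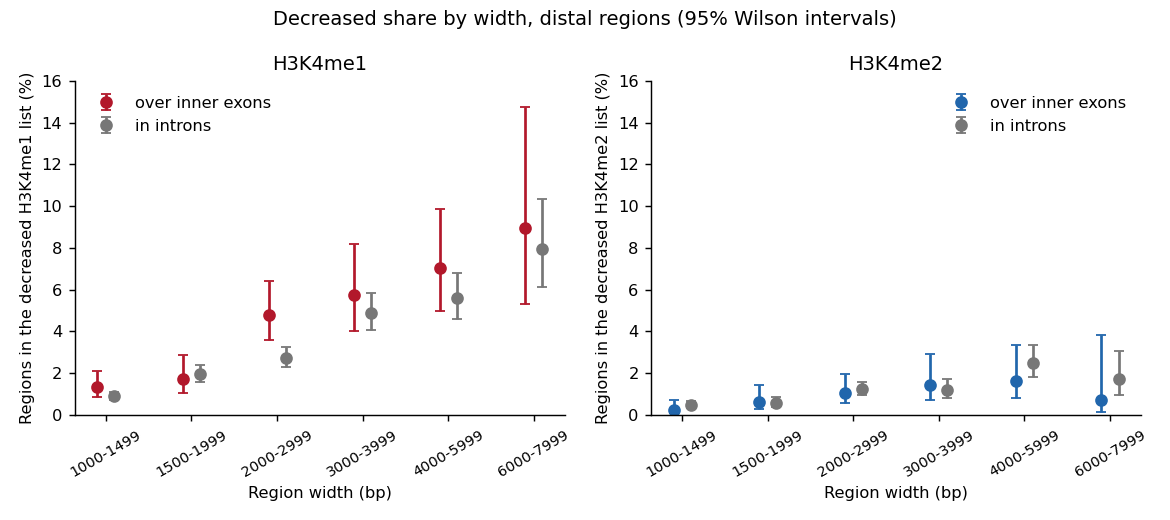
Percentage of distal regions in the decreased H3K4me1 list (left) and H3K4me2 list (right) against region width in bp, for inner-exon regions (coloured) and intronic regions (grey), as points with 95% Wilson intervals. The H3K4me1 share of inner-exon regions climbed from 1.33% in the narrowest class to 8.97% in the widest, and the intervals of both kinds of region were apart only at 2000 to under 3000 bp.

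Base composition moved with the H3K4me1 call and not visibly with the H3K4me2 call. Regions with lower H3K4me1 had a median GC content of 50.9% (quartiles 47.5 and 53.2%), against 46.6% (43.2 and 50.2%) in neither list and 45.7% (43.5 and 50.6%) for those with lower H3K4me2. Outside exons the regions with lower H3K4me1 still had a median GC content of 50.4%, against 46.1% in neither list, and within exons the values were 55.2 and 51.9%. The ratio of observed to expected CpG was close in both sets, with medians of 0.224 and 0.238.

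Split into 4 classes of equal number by GC content, with bounds at 43.3, 46.7 and 50.4%, the distal inner-exon regions had H3K4me1 shares of 0.496% (0.212 to 1.15%), 2.38% (1.61 to 3.52%), 3.67% (2.68 to 5.02%) and 7.74% (6.24 to 9.55%). Intronic regions cut at the same bounds had 0.438%, 1.76%, 3.87% and 6.92%, and in each class the intervals of both kinds of region overlapped. Inner-exon regions were more often GC-rich, with 1008 of 4032 above the highest bound against 2701 of 22612 intronic regions. Given the GC content of the intronic regions, the inner-exon share would be 2.72%, and given both their GC content and widths 2.53%, against the 2.45% measured in introns. The part of base composition in the difference between the classes was not tested further. The H3K4me2 shares in the 4 GC classes were 0.694%, 0.992%, 0.596% and 0.893%, in no order.

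The GC pattern held in narrow and wide regions. At 1000 to under 2000 bp the H3K4me1 share was 0.361% (2 of 554) in the lowest GC class and 3.24% (19 of 586) in the highest. At 2000 to under 8000 bp it was 0.659% (3 of 455) and 14.0% (59 of 422), with intervals of 0.224 to 1.92% and 11.0 to 17.6%. The wide, GC-rich regions were therefore 422 of the 4032 but held 59 of the 144 calls. Intronic regions of 2000 to under 8000 bp in these GC classes had 0.642 and 11.9%.

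**Figure D3:**
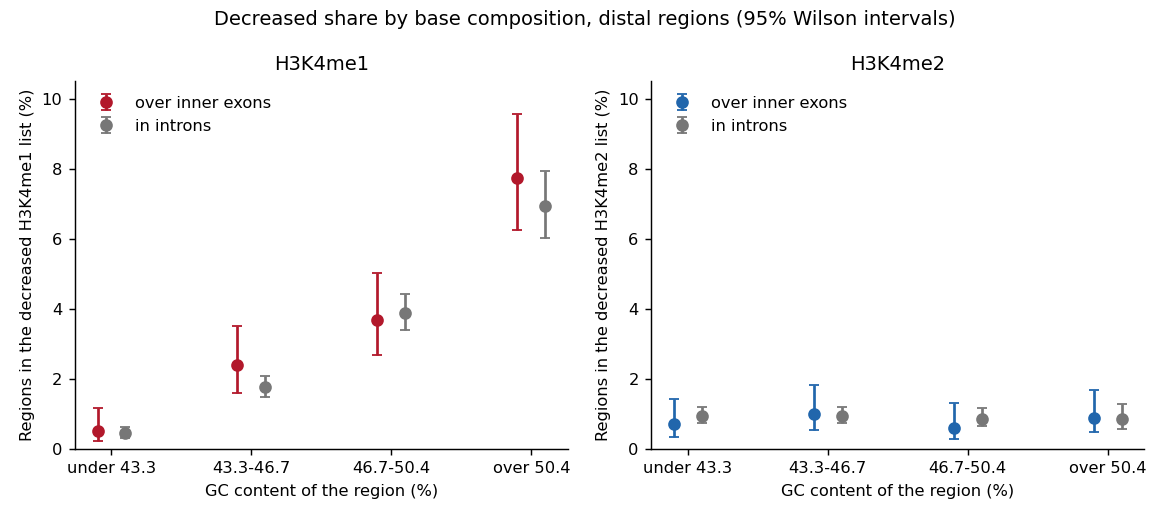
Percentage of distal regions in the decreased H3K4me1 list (left) and H3K4me2 list (right) in 4 classes of GC content, for inner-exon regions (coloured) and intronic regions (grey), as points with 95% Wilson intervals. H3K4me1 shares of inner-exon regions went from 0.496 to 7.74% with intronic ones beside them, and H3K4me2 shares stayed between 0.596 and 0.992%.

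Most regions met a short stretch of coding sequence. In 74.3% the host gene contributed 1 exon block (exons of its transcripts merged where they overlap), the largest number was 10, and 87.2% held a whole exon of the host's transcript. No region touched the first exon of that transcript, and 93 held no coding base, none of which was in either list (0 of 93, interval up to 3.97%). The median exonic length was 139 bp and the median exonic share 6.96%. Exonic share was lower in the regions with lower H3K4me1 (median 5.41%) and lower H3K4me2 (5.45%) than in neither list (7.04%), and it moved with width: the regions with the smallest exonic shares, 0.04 to 3.89%, had a median width of 3280 bp and an H3K4me1 share of 5.75% (4.47 to 7.36%), against 2.68 to 2.98% in the 3 other classes of exonic share.

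Regions with several exon blocks were more often in the decreased H3K4me1 list. The share was 5.30% (4.097 to 6.84%) of 1037 regions with 2 or more blocks and 2.97% (2.42 to 3.64%) of 2995 with 1 block. The former were also wider (median 2320 against 1820 bp) and richer in G and C (48.3 against 46.2%). Within 2000 to under 8000 bp the shares were 7.26% (5.45 to 9.61%) and 5.19% (4.12 to 6.51%), with overlapping intervals. For H3K4me2 the shares were 0.868% with several blocks and 0.768% with 1.

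Exonic bases were fewer in the middle than at the edges of the regions with lower H3K4me1. In the middle 20% of these regions a mean of 5.94% of bases was exonic (SE 0.992 over 144 regions), against 11.1% (SE 1.50) in the outer 10% on each side, and regions in neither list had 10.1 and 10.9%. In regions of 2000 bp or more with lower H3K4me1 the middle held 6.80% (SE 1.19, n = 113) and the outer stretches 7.13% (SE 1.10). Regions of these widths in neither list had 6.18% (SE 0.318, n = 1802) and 8.25%, a larger difference. The share of regions with any exonic base in the middle 20% was similar, at 31.25% with lower H3K4me1 and 33.0% in neither list. At 2000 bp or more it was 35.4 and 30.6%.

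Position along the host gene, measured from its 5′ to its 3′ end at the region's centre, differed little. The median was 68.5% of the gene's length for regions with lower H3K4me1, 71.2% for lower H3K4me2 and 65.7% in neither list. In the 5′-most 20% of host genes 2 of 222 regions, or 0.901% (0.247 to 3.22%), were in the decreased H3K4me1 list, and farther along the shares were 3.10 to 4.19%. The median distance to the nearest TSS was 14670, 21552.5 and 17567 bp for lower H3K4me1, lower H3K4me2 and neither.

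The 5 regions in both decreased lists lay in 5 genes, where the product of the shares would give 1.14. Across all 358833 merged regions 172, or 0.0479%, were in both, with 0.761% in the H3K4me1 list and 1.87% in the H3K4me2 list. That number also exceeded the product of the shares, so such an excess was not particular to inner-exon regions. The region in *Nav2*, which encodes a cytoskeleton-associated protein of cell migration and neurite growth, was 3500 bp wide and covered exons 21 to 22 of 38 at chr7:56820166-56823665. In *Espnl*, a relative of the actin-bundling protein espin, it was 2980 bp wide over exon 5 of 9 at chr1:93228886-93231865. The region in *Slc12a3*, the thiazide-sensitive sodium chloride cotransporter of the kidney, was 2000 bp wide over exons 23 to 24 of 25 at chr8:96880586-96882585. *Mylk2*, a myosin light chain kinase of skeletal muscle, had 1700 bp over exons 7 to 8 of 13 at chr2:152743266-152744965. *Susd1*, a membrane protein with sushi domains, had 1260 bp over exon 12 of 17 at chr4:59361966-59363225. The first 4 of these held 50.5 to 54.8% GC and the *Susd1* region 43.6%. In *Slc12a3* and *Mylk2* no TSS of the host gene lay inside a merged region, whereas 93.8% of all distal inner-exon regions had a host gene with a marked TSS.

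The 9 widest regions with lower H3K4me1, ties included, lay in 9 genes. *Mapkapk2*, a kinase activated by p38, had 7520 bp over exons 2 to 4 of 10 (chr1:132954466-132961985). *Rbpms2*, an RNA-binding protein found in heart and smooth muscle, had 7160 bp over exons 2 to 5 of 8 (chr9:65492186-65499345). *Afap1*, an adaptor that links actin filaments to Src, and *Alpk3*, an alpha kinase of heart muscle, had 7000 bp each (chr5:36272686-36279685 and chr7:88219366-88226365). The *Alpk3* region was the most exonic of the set, with 1406 bp, or 20.1%, over exons 4 to 5 of 14.

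Next in width came *Acot7*, a thioesterase of fatty acyl-CoA, with 6920 bp over exon 8 of 9, *Dgcr2*, an adhesion receptor, with 6760 bp over exon 2 of 10, and *Atxn10* with 6560 bp over exon 11 of 12. *Ldb3*, a protein of the Z-disc that anchors actin filaments in the sarcomere, and *Hmcn2*, an extracellular matrix protein, had 6480 bp each, over exon 5 of 14 and exon 5 of 98. The 9 regions had a GC content of 46.1 to 55.9% and lay 7456 to 47957 bp from the nearest TSS.

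Wide regions with lower H3K4me2 lay in other genes. *Iqgap2*, a scaffold of the actin cytoskeleton, had 5760 bp over exons 18 to 21 of 36 (chr13:96439726-96445485). *Kdm2a*, a histone H3 lysine demethylase, had 4400 bp over exon 13 of 21 (chr19:4331206-4335605), and *Ssh2*, a cofilin phosphatase, had 4380 bp over exon 9 of 16 (chr11:77233706-77238085). *Frmd4a*, a scaffold of cell polarity, had 4340 bp, of which 23 bp were exonic. *Lmx1a*, a LIM homeodomain transcription factor, had 4260 bp over exons 4 to 5 of 8, *Ak7*, an adenylate kinase of cilia, 4160 bp over exon 13 of 18, and *Ric8b*, a chaperone of G proteins, 4060 bp over exon 5 of 10. These 7 regions had a GC content of 40.4 to 47.2%, and of them *Ak7*, at 47.2%, reached the range of the widest regions with lower H3K4me1.

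Of 2700 host genes, 1855 held 1 distal inner-exon region and 845 held more, up to 11 in *Nav2*. A decreased region was present in 161 genes, and 10 had 2 of them, while none had more. Both were in the H3K4me1 list in *Tns1* (tensin, which links actin to integrins), *Fndc3b*, *Afap1*, *Acot7*, *Nav2*, *Ldb3*, *Abcc8* (the sulfonylurea receptor of ATP-sensitive potassium channels) and *Jag2* (a Notch ligand). In *B4galnt3*, a glycosyltransferase, 1 region was in each list. In *Nav2* the second region in the H3K4me1 list was 2280 bp wide over exons 35 to 36, and the first was the one in both lists.

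Several of these pairs were neighbours and so are not independent observations. The *Abcc8* regions, of 2880 bp over exons 25 to 28 of 39 and 2940 bp over exon 29, lay 620 bp apart, the smallest gap in the merged list. In *Acot7* the gap was 720 bp, between a region of 6220 bp over exon 7 and that of 6920 bp over exon 8. In *Ldb3* it was 1560 bp, between 6480 bp over exon 5 and 6440 bp over exons 6 to 7. The *Jag2* regions of 2940 bp over exon 3 and 1380 bp over exons 6 to 7 of 26 lay 2480 bp apart.

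The host genes also held other marked regions, in and out of the lists. *Ldb3* held 18 merged regions along 61983 bp, of which 3 were in the decreased H3K4me1 list and 1 in the H3K4me2 list. *Afap1* held 24 along 110605 bp, 4 with lower H3K4me1 and 1 with lower H3K4me2. *Acot7* held 25 along 93722 bp, of which 3 had lower H3K4me1 and 0 lower H3K4me2. In *Nav2*, 94 regions lay along 363899 bp, 7 with lower H3K4me1 and 2 with lower H3K4me2.

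**Figure D4:**
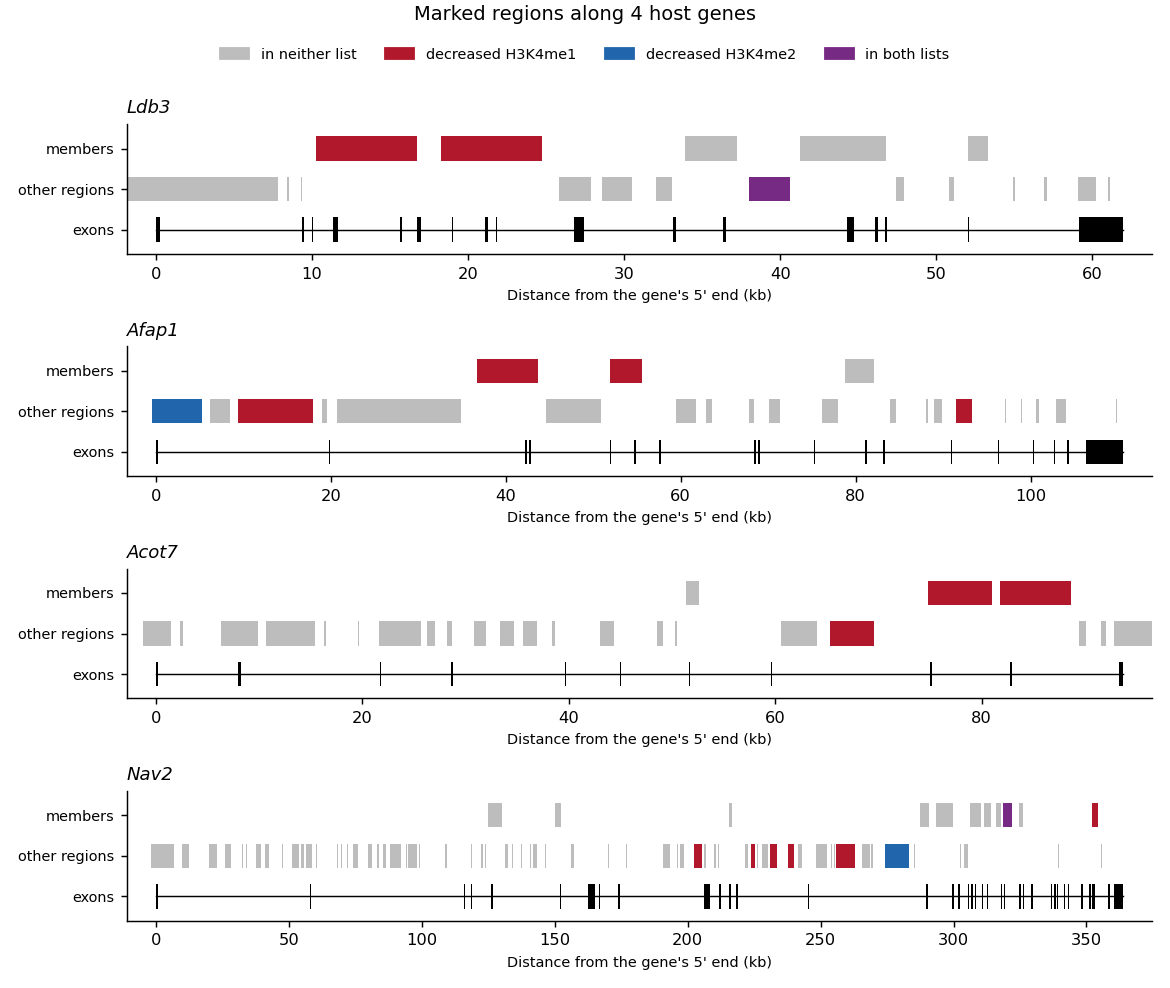
Maps of 4 host genes drawn 5′ to 3′ in kb from the gene's start, with exons of protein-coding transcripts as black boxes, distal inner-exon regions in the top row and all other merged regions in the middle row, coloured by decreased list. *Ldb3* shows 2 adjacent regions with lower H3K4me1 over exons 5 to 7, *Acot7* a further adjacent pair over exons 7 and 8, and *Nav2* the region in both lists among 11 distal inner-exon regions.

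Host genes were grouped by lists of function, chosen with earlier results of these data known. The lists were not complete, so a gene of like function can stand in no list. Ion channels and calcium handling had 75 regions in 32 host genes, of which 8, or 10.7% (5.50 to 19.7%), were in the decreased H3K4me1 list and none in the H3K4me2 list. They included regions in *Abcc8* (2 regions), *Atp2b2* (a plasma membrane calcium pump, 5400 bp), *Cacna1s* (a subunit of the L-type calcium channel, 1360 bp), *Camk2a* and *Camk2b* (calcium/calmodulin-dependent kinases, 4820 and 3980 bp) and *Kcnq1* (a potassium channel of cardiac repolarization, 6140 bp over exon 12 of 16). The 8 regions lay at 37.3 to 89.3% of the length of their genes. The list did not hold *Cacng8*, which had a region of 2020 bp with lower H3K4me2. It also left out *Jph2*, *Jph3* and *Kcnip3*, which had regions with lower H3K4me1.

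Cytoskeleton and adhesion genes had 11 of 136 regions in the decreased H3K4me1 list, or 8.09% (4.58 to 13.9%), and 0 in the H3K4me2 list. Beside the pairs in *Afap1* and *Tns1*, they included single regions in *Dnahc2* (2920 bp), *Iqgap1* (4600 bp), *Kif1a* (3580 bp), *Kif26a* (4960 bp), *Myo18b* (1200 bp) and *Svil* (2100 bp). *Kif1a* is a motor of axonal transport, and *Svil* encodes supervillin, which binds actin and myosin. The list did not hold *Iqgap2*, *Ssh2*, *Espnl* or *Nav2*, each with a region with lower H3K4me2 given above. For both lists of genes the lower end of the interval stood above the 3.57% of all distal inner-exon regions, though regions of 1 gene were counted separately and the lists were read side by side with no test. The H3K4me1 share also moved with GC content and width, as given above, and the part of these in the shares by gene list was not tested.

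Sarcomere and Z-disc genes had 3 of 37 regions with lower H3K4me1 (8.11%, 2.80 to 21.3%), 2 in *Ldb3* and 1 in *Myom1*, the myomesin of the M-band, where 5320 bp covered exons 34 to 36 of 38. Genes of Wnt, Notch, TGF-beta and BMP signalling had 4 of 56 (7.14%, 2.81 to 17.0%), with *Acvr2b*, an activin receptor (5440 bp over exon 2 of 10), *Ski*, a repressor of TGF-beta signalling (1900 bp over exons 4 to 6 of 7, 35.5% exonic), and both regions of *Jag2*. Their intervals held the value of all distal inner-exon regions, and neither list had a region with lower H3K4me2.

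Other lists had few calls, and their H3K4me1 intervals held the 3.57% of all distal inner-exon regions. Extracellular matrix genes had 2 of 87 regions with lower H3K4me1, in *Col15a1* (1200 bp) and *Fbn2* (5620 bp), and 1 with lower H3K4me2, in *Papln* (1180 bp over exon 3 of 28). Genes of transcription and chromatin had 1 of 99 in each list, *Arid1b* (5140 bp) for H3K4me1 (1.01%, 0.179 to 5.50%) and *Kdm2a* for H3K4me2. The endothelial and endocardial list had 1 of 25 with lower H3K4me1 (4.00%, 0.710 to 19.5%), in *Dysf* (3060 bp), which is also a repair protein of muscle membranes. No region was in a decreased list in the listed axon guidance genes (0 of 46, interval up to 7.71%), neuronal genes (0 of 31, up to 11.0%) or red blood cell genes (0 of 3). The neuronal list did not hold *Dab1*, *Syt7*, *Hcrtr2* or *Slc1a6*, each with a decreased region. Hosts in no list had 114 of 3439, or 3.31% (2.77 to 3.97%).

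**Figure D5:**
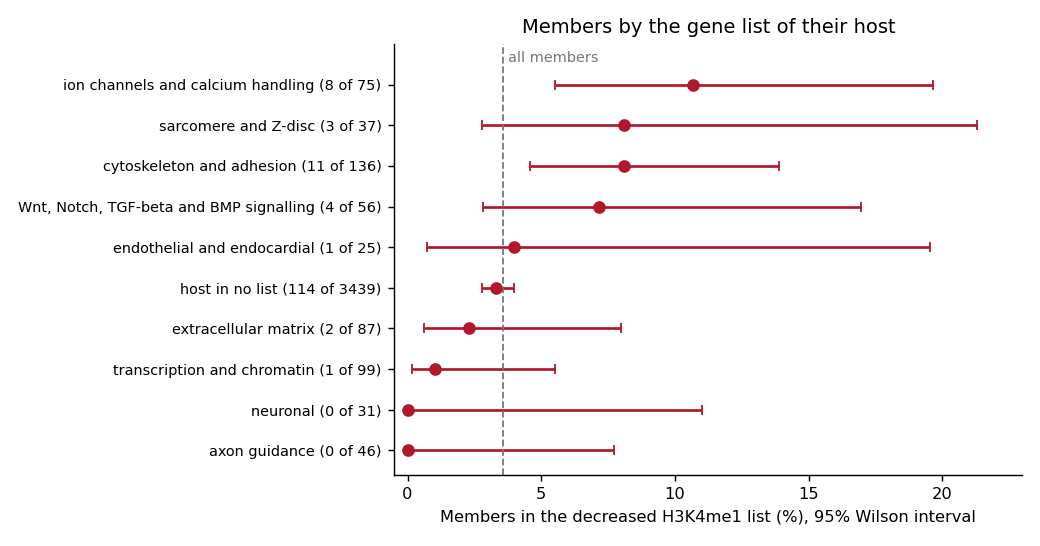
Percentage of distal inner-exon regions in the decreased H3K4me1 list by the functional list of their host gene (points, with 95% Wilson intervals; counts in parentheses; lists with fewer than 10 regions left out), with the value over all 4032 regions as a dashed line. Ion channels and calcium handling at 10.7% and cytoskeleton and adhesion at 8.09% had intervals above the line. The genes in the axon guidance and neuronal lists had no call.

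Regions with lower H3K4me1 had other regions of that list nearby more often than the rest. Another H3K4me1-decreased region lay within 10 kb of 27 of 144 (18.8%, 13.2 to 25.9%), against 244 of 3861 in neither list (6.32%, 5.59 to 7.13%). Pairs of regions with lower H3K4me1, as in *Abcc8*, *Acot7* and *Ldb3*, were counted from both sides, which cannot happen among regions in neither list. The sets also differed in width and GC content, and the part of these was not tested. An H3K4me2-decreased region lay within 10 kb of 11.1% (6.96 to 17.3%) of them and of 8.94% (8.08 to 9.88%) of those in neither list. The 32 regions with lower H3K4me2 had another of that list within 10 kb in 3 cases.

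Inner-exon calls were also counted by the state of the host's promoter. A TSS of the host gene lay in an H3K4me2-decreased region for 1251 of the 4032 regions, and 41 of these, or 3.28% (2.42 to 4.42%), were in the decreased H3K4me1 list, against 3.70% (3.06 to 4.47%) of the other 2781. For H3K4me2 itself the shares were 0.480% (0.220 to 1.04%, 6 regions) and 0.935% (0.639 to 1.37%, 26 regions), with intervals that overlapped. In the 102 regions whose host had a TSS in an H3K4me1-decreased region, 8 had lower H3K4me1 (7.84%, 4.03 to 14.7%).

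Every autosome held regions with lower H3K4me1, from 1.36% of regions on chromosome 10 (3 of 220) to 7.32% on chromosome 17 (12 of 164, 4.23 to 12.4%). Chromosome 8 had 6.52% (12 of 184), and chromosome X had 0 of 15.

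Short letter patterns bound by heart transcription factors were looked for on both strands in the central 1000 bp. The GATA letters AGATAA occurred in 61 of 144 regions with lower H3K4me1, or 42.4% (34.6 to 50.5%), in 52.2% (50.6 to 53.7%) of those in neither list and in 48.5% of all merged regions of these widths. The T-box letters GGTGTG occurred in 57.6% (49.5 to 65.4%), 51.0% and 50.7%, and the GC-rich SP and KLF letters GGGCGG in 24.3%, 18.2% and 24.2%. For NKX2-5 (TNAAGTG) the shares were 47.2, 46.5 and 44.8%, for TEAD (GGAATG) 48.6, 47.9 and 46.7%, for HAND and TWIST factors (CATCTG) 63.9, 59.9 and 56.5%, and for MEF2 (CTATTTATA) 2.08, 1.30 and 1.66%. All merged regions of these widths include those near a TSS. In distal intronic regions the shares were 53.4% for AGATAA, 49.8% for GGTGTG, 13.6% for GGGCGG, 48.7% for TNAAGTG, 47.8% for GGAATG, 58.8% for CATCTG and 2.06% for CTATTTATA. Among regions with lower H3K4me2, CATCTG occurred in 14 of 32 (43.8%, 28.2 to 60.7%) and AGATAA in 18 of 32 (56.3%). GGTGTG occurred in 21 (65.6%, 48.3 to 79.6%), GGAATG in 18, TNAAGTG in 15, GGGCGG in 4 and CTATTTATA in 1. The sets also differed in GC content, as given above, and its part in these shares was not tested. No factor's binding was measured here.

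At the edges of the choice, 60 regions were exactly 1000 bp wide, none of them in a decreased list, and 58 otherwise matching regions were 980 bp wide, 2 of them in the H3K4me1 list. The widest chosen region measured 7980 bp and was in neither list, and the next outside measured 8000 bp and was in the H3K4me1 list. The chosen region nearest a TSS, in *F12*, lay 5003 bp away, and the nearest outside lay 5000 bp away, both in neither list. Of all 10910 distal inner-exon regions of any width, 6737 were under 1000 bp, with 11 in the H3K4me1 list and 13 in the H3K4me2 list, and 141 were 8000 bp or wider, with 16 and 5.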

How the data were processed

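The authors deposited 3 BED lists on mm9, merged H3K4me1, H3K4me2 and H3K4me3 regions and the subsets they called lower in mutant hearts, with positions and no counts. Per the labels, CASAVA 1.8.2, FastQC, Bowtie2, Bowtie and SAMtools were used; the peak caller and the test are not given in the sources used here, and depth per library is unknown. Groups were taken from sample titles. Starts were converted to 1-based. Genes came from GENCODE vM1 and sequence from NCBIM37, both mm9. The host was the gene with most exonic bases in a region, and exons were numbered in its transcript with the longest coding sequence. Decreased regions were matched exactly. Shares carry 95% Wilson intervals, checked on simulated data, and no test was run. Named regions are those in both lists, the 8 widest per list with ties, those with hosts in the gene lists, pairs in 1 gene and those beside a threshold; a few that the rule names are not reported here. The members and lists were chosen with earlier results of these data known. Alternatives covered TSS distance, width, exon definition and weighting. Python 3.11.15, pandas 2.3.3, numpy 2.4.6 and matplotlib 3.10.9 were used.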

Additional observations from a re-analysis of the deposited data

How the results depend on the processing

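No paired analysis was possible because the lists hold no replicate values. Of 15 alternatives, 10 kept the H3K4me1 share and 13 the H3K4me2 share within the main interval. A minimum width of 500 bp gave 6576 regions with shares of 2.30 and 0.547%, and 2000 bp gave 1936 regions with 5.84 and 1.24% and 3 regions in both lists. By covered base pairs the H3K4me1 share was 4.96%. Weighting, chosen after seeing the data, to the GC content of distal intronic regions gave 2.72%, and to their width and GC content 2.53%. Weighting to their widths alone gave 3.22%. Keeping only the widest region of each host gene gave 3.70%, a choice that favours wide regions, whose H3K4me1 share was higher. With the other alternatives of TSS distance and exon definition the number of regions ran from 2946 to 5381 and the regions in both lists from 4 to 6. The calls depend on depth, which is unknown.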
